A study of Mus musculus with 12 samples.

Results

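CD172a dendritic cells (DCs) of the spleen were compared with common DC progenitors (CDPs) of the bone marrow, the span from an uncommitted progenitor to the mature cell usually called the type 2 conventional DC (cDC2). The comparison was chosen by the sample titles, and it held 5 of the 12 arrays of the series, with 2 of CD172a DC and 3 of CDP. The pre-CD4 progenitor of marrow (2 arrays), which lies between both, and the splenic CD24 DC (3 arrays) are used to place the genes of this comparison. All populations came from mice labelled N8 Zbtb46GFP/+ on C57Bl/6, so each carried the green fluorescent protein reporter in 1 copy of Zbtb46, a transcription factor gene of conventional DCs. No wild-type array was part of the comparison. The mice were studied at steady state, and their age is not given in the sources used here. CDPs were marrow cells without lineage markers, CD11c or MHC class II that carried CD135, CD115 and an intermediate amount of CD117. CD172a DCs carried CD172a together with CD11c and MHC class II, and are taken here to come from digested spleen, since the labels name bone marrow in the progenitor gates alone. Pre-CD4 cells were lineage-negative marrow cells with low CD117 that carried CD135, CD115 and CD11c and lacked MHC class II. CD24 DCs were CD11c and CD24 positive and CD172a negative, and the label gives them as MHC class II negative. The median log2 RNA level of 19 class II presentation genes was 9.34 in CD24 DC, 9.28 in CD172a DC and 6.59 in CDP. Class II RNA was thus not low in CD24 DC. Cells were pooled from 8 to 10 littermates and sorted to a purity above 95%, per the design text. The labels do not say whether the arrays of a group came from separate pools, so the p-values measure the spread between these arrays, which may be technical.

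Conventional DCs take up antigen, carry it on MHC class II molecules and activate T cells with costimulatory ligands such as CD80 and CD86. They arise in marrow from CDPs, proliferating cells that carry the receptors FLT3, KIT and CSF1R, through committed precursors that leave for the tissues. The cDC1 branch needs IRF8, BATF3 and ID2 and is specialised in presenting antigen to CD8 T cells. The cDC2 branch uses IRF4, and in the spleen a large part of it needs Notch2 signalling and carries CD4, ESAM and the lectin DCIR2, encoded by Clec4a4.

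The values are log2 expression levels as the authors deposited them, so a difference of 1 is a doubling of the linear value. A gene was called when its difference between the groups had an adjusted p under 0.05 in a limma fit of all 12 arrays, with p-values adjusted over 22180 genes. Differences are CD172a DC minus CDP unless another pair is named, and are given ± standard error. Array medians were 4.89 to 5.0 in CDP and 5.12 to 5.23 in CD172a DC, and interquartile ranges were 2.67 to 2.86 and 2.17 to 2.35, so CD172a DC arrays held the narrower spread of values. Both CD172a DC arrays correlated at 0.966, whereas CD24 DC arrays 1 and 3 correlated at 0.925. Levels of the 1105 olfactory receptor genes give a sense of the low end, with 95% of them below 5.08 in CDP and below 5.58 in CD172a DC. Arrays measure the RNA of a whole sorted population, so fewer cells of a type and less RNA per cell cannot be told apart. Stage, tissue (marrow or spleen) and release of the cells (mortar and pestle, or collagenase B and DNase) change together between CDP and CD172a DC, and their parts cannot be told apart.

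The genes of the sorting markers and of the cell identities were read first, as a check of the labels. Itgax, the gene of CD11c, stood at 6.17, 5.84 and 6.19 in CDP and at 9.53 and 10.19 in CD172a DC. Sirpa, the gene of CD172a, stood at 8.20, 8.00 and 8.17 in CDP and at 9.36 and 9.34 in CD172a DC, a difference of 1.23 ± 0.23. Sirpa was thus well above the low end of the array in CDP too, and CD172a was not part of the CDP gate. H2-Ab1, which encodes a class II beta chain, measured 6.67, 6.70 and 6.41 against 11.79 and 12.06. The cDC2 markers Irf4, Clec4a4, Esam and Cd4 were each called higher in CD172a DC, by 4.37 ± 0.35, 5.09 ± 0.24, 0.96 ± 0.20 and 2.46 ± 0.36. The progenitor markers Cd34 and Sox4 fell by 5.34 ± 0.31 and 3.21 ± 0.44. Each of these genes moved in the direction of the labels, whereas the growth factor receptors of the CDP gate took different courses. Kit, Flt3, Csf1r, Itgax, Sirpa and the H2 genes belong to the gates, so their values check the sort and are not findings. Lists below that hold any of these genes count them as members.

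Kit, the gene of CD117, was higher in the mature cell than in the progenitor. It stood at 8.51, 8.16 and 8.04 in CDP, at 6.11 and 5.80 in pre-CD4 and at 9.59 and 9.80 in CD172a DC. The CD172a DC arrays lay above all CDP arrays, by 1.46 ± 0.21 (adjusted p = 0.000266), and pre-CD4 lay below both. CD24 DC had a mean of 9.71, a difference of -0.01 from CD172a DC (adjusted p = 0.99). Flt3, the receptor of the main DC growth factor, stood at 9.64, 9.70 and 9.22 in CDP and at 8.96 and 9.54 in CD172a DC. The groups overlapped, and the difference of -0.27 ± 0.23 did not pass the test (adjusted p = 0.41). Csf1r, which encodes CD115, measured 8.99, 9.25 and 9.17 in CDP and at 7.88 and 8.37 in CD172a DC, and fell by 1.02 ± 0.26 (adjusted p = 0.0118). It remained 2.43 above its mean of 5.69 in CD24 DC. The call on Csf1r was lost under quantile and scale normalization, without CD172a DC array 1 and without the arrays numbered 1.

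Of the 22180 genes, 1925 (8.68%) were called higher and 3139 (14.2%) lower in CD172a DC than in CDP, 5064 (22.8%) in all. These shares are the background for each list count below. Against CD24 DC the shares of all genes were 2.37% higher and 3.21% lower. They were 2.32% and 2.23% for pre-CD4 against CDP, and 4.7% and 8.02% for CD172a DC against pre-CD4. Falls were more frequent at moderate size and rises at large size. At a difference of at least 1 the called genes were 1062 higher and 2028 lower, and at a difference of at least 3 they were 138 higher and 56 lower. The median difference of all genes was 0.13, and it became 0.02 after quantile and -0.12 after scale normalization. The arrays of both groups did not overlap for 5063 of the 5064 called genes, nor for 58.7% of all genes. Without CD172a DC array 1 the calls numbered 1095 higher and 1713 lower, and without array 2 they numbered 1254 higher and 2365 lower.

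**Figure D1:**
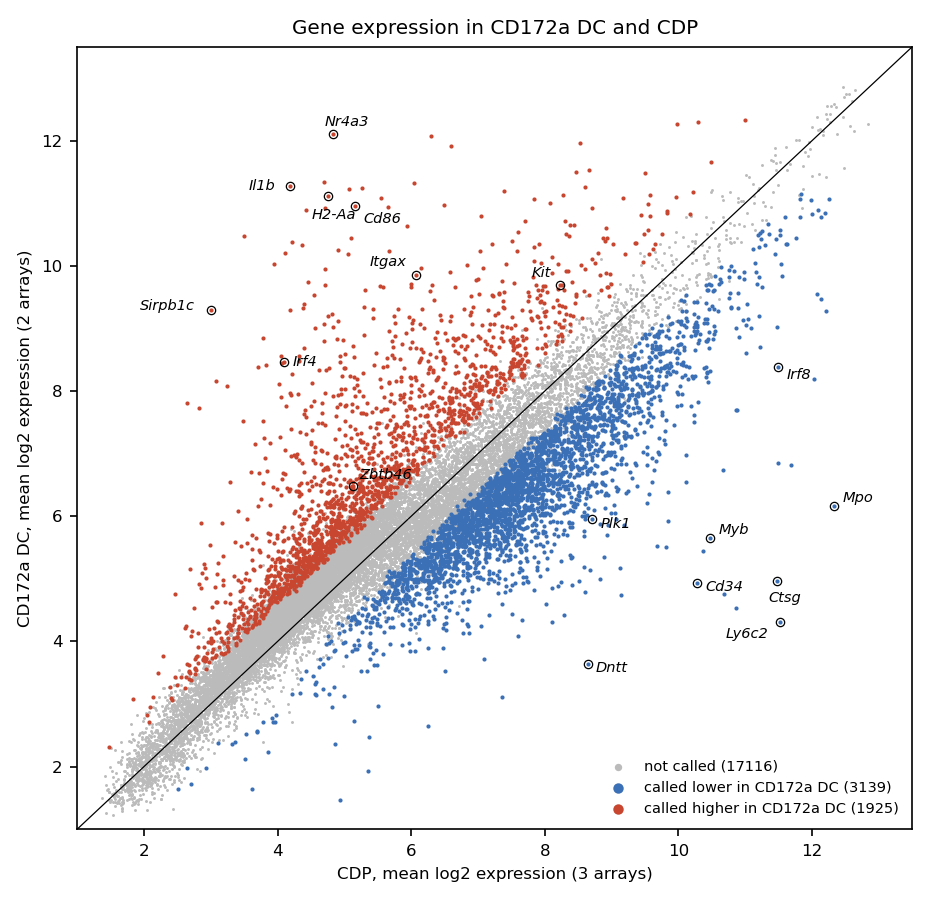
Mean log2 expression of each of 22180 genes in CDP (x axis, 3 arrays) and CD172a DC (y axis, 2 arrays). The line marks equal levels, 1925 genes called higher are red, 3139 called lower are blue, and circled genes are named in the text. The red points reach farther from the line than most of the blue ones, with Nr4a3 7.28 above it and Ly6c2 7.21 below it.

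The largest rise was that of Nr4a3, an orphan nuclear receptor gene that is induced rapidly by signalling. It stood at 4.96, 4.77 and 4.76 in CDP and at 12.04 and 12.16 in CD172a DC, a difference of 7.28 ± 0.48 (adjusted p = 5.24e-07). Il1b, the gene of the inflammatory cytokine interleukin 1 beta, stood at 3.95, 3.94 and 4.67 in CDP and at 10.81 and 11.76 in CD172a DC, a difference of 7.10 ± 0.32. Ptgs2, the inducible cyclooxygenase of prostaglandin synthesis, stood at 5.18, 4.45 and 4.47 against 11.28 and 11.41, a difference of 6.64 ± 0.24. In CDP all 3 stood near or below the upper range of the olfactory receptors, and their CD172a DC arrays lay far above every CDP array. The other large rises were Rasgef1b at 6.98, Il1r2, the decoy receptor of interleukin 1, at 6.47, and H2-Aa at 6.36. They were followed by Sirpb1c at 6.29, Ccrl2, an atypical chemokine-binding receptor, at 6.22, H2-Eb1 and Gm19765 at 6.16 each, and Adam23 at 6.10. Dnase1l3, a secreted nuclease of DCs and macrophages, rose by 6.08, Slamf7 and Rgs1, a regulator of G-protein signalling, by 5.97 each, and Cd86 by 5.80. Sirpb1c and Gm19765 belong to families of near-identical copies or predicted genes, and their values are uncertain.

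The largest fall was that of Ly6c2, which encodes a Ly6C antigen of monocytes and progenitors. It stood at 10.94, 11.82 and 11.81 in CDP and at 4.84 and 3.79 in CD172a DC, and fell by 7.21 ± 0.40 (adjusted p = 1.04e-07). Pre-CD4 cells kept the level of the progenitor, at 11.58 and 11.56. Cd34, the antigen of haematopoietic progenitors, stood at 10.41, 10.16 and 10.26 in CDP, at 7.19 and 6.11 in pre-CD4 and at 4.75 and 5.12 in CD172a DC. Dntt, the terminal transferase of lymphoid progenitors, fell by 5.0 ± 0.42 from CDP levels that spread between 7.57 and 9.64. The glutamate receptor gene Gria3 fell by 4.93 ± 0.36, and the plasma membrane calcium pump gene Atp2b4 by 4.40 ± 0.33. Lgals1, the gene of galectin 1, stood at 11.53, 11.39 and 11.57 in CDP and at 6.40 and 7.29 in CD172a DC. Gria3, Atp2b4 and Lgals1 were not called between pre-CD4 and CDP, with adjusted p of 0.8, 0.81 and 0.85, and their fall was called between CD172a DC and pre-CD4. The Ly6c genes are near-identical copies, and the value of Ly6c2 is uncertain.

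Of 21 measured genes of granule proteins, 10 fell, 2 rose and 9 were not called, where 14.2% of all genes fell and 8.68% rose. The list holds early and late neutrophil granule genes and granule genes of cytotoxic, mast and other cells. The median difference was -1.37, against 0.13 for all genes. Mpo, the gene of myeloperoxidase, stood at 12.16, 12.37 and 12.45 in CDP, at 7.91 and 6.93 in pre-CD4 and at 6.19 and 6.13 in CD172a DC. Ctsg, the gene of cathepsin G, stood at 11.51, 11.31 and 11.59 in CDP and at 5.19 and 4.75 in CD172a DC, and fell by 6.5 ± 0.30. Neither gene overlapped between the groups, and most of each fall was already present in pre-CD4, at -4.91 for Mpo and -4.92 for Ctsg. Prtn3 and Elane, further serine proteases of azurophil granules, fell by 4.16 ± 0.32 and 4.32 ± 0.61. F13a1, a coagulation factor gene of monocytic cells, fell by 5.92 ± 0.23, and the haptoglobin gene Hp by 3.30 ± 0.43. The rising members were Srgn, the proteoglycan core of secretory granules, at 1.02 ± 0.23, and the lysozyme gene Lyz1 at 1.32 ± 0.37.

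The neutrophil genes S100a8, S100a9 and Ngp did not follow the group labels. S100a8, a calcium-binding protein gene abundant in neutrophils, stood at 6.86, 10.25 and 10.26 in CDP and at 10.24 and 4.83 in CD172a DC. S100a9 stood at 6.63, 9.99 and 9.68 against 9.33 and 5.22, and Ngp at 5.10, 8.77 and 8.11 against 6.81 and 4.71. CD172a DC array 1 and CDP arrays 2 and 3 were high in each of these 3 genes, and CD172a DC array 2 and CDP array 1 were low. The mean over the 15 neutrophil markers was 6.55 and 5.35 in the CD172a DC arrays and 5.27, 6.35 and 6.27 in the CDP arrays. Ly6g, a defining neutrophil antigen, was near the low end throughout, between 3.81 and 4.23. Of the 15 markers 2 were called higher, Il1r2 and Stfa2l1, and 1 lower, the collagenase gene Mmp8, where 8.68% of all genes were higher and 14.2% lower. The call of Stfa2l1 was lost under quantile and scale normalization, without CDP array 2, without either CD172a DC array and without the arrays numbered 1, and that of Mmp8 without CD172a DC array 2. Il1r2 stood at 10.43 and 11.35 in CD172a DC arrays 1 and 2. The granule list includes Ngp. Its mean was 6.17 and 5.71 in CD172a DC arrays 1 and 2, and 7.46, 7.96 and 8.09 in the CDP arrays. Mpo stood at 6.19 and 6.13 and Ctsg at 5.19 and 4.75 in the CD172a DC arrays. The part of neutrophil RNA in the granule and Il1r2 results was not tested.

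Of 25 progenitor transcription factors, 10 fell, 2 rose and 13 were not called, with a median of -0.36, where 14.2% of all genes fell, and the falling number was 5 without CD172a DC array 2. Myb, a factor that maintains haematopoietic progenitors, stood at 10.48, 10.50 and 10.45 in CDP, at 8.94 and 8.69 in pre-CD4 and at 5.90 and 5.40 in CD172a DC. It fell by 4.83 ± 0.23 (adjusted p = 3.75e-08), with each stage separate from the next. The stem cell factor gene Erg fell by 3.26 ± 0.32 and was already at 5.26 and 4.25 in pre-CD4. Lyl1 fell by 2.46 ± 0.32, Hoxa9 by 1.30 ± 0.27 and Ikzf2 by 1.20 ± 0.26. The call of Hoxa9 was lost without the arrays numbered 1 and that of Ikzf2 without CD172a DC array 2. The 2 rising genes were Bcl11a, a factor of lymphoid and DC development, at 0.85, and Tcf7l2 at 1.17. Of 22 progenitor surface and signalling genes 12 fell, with a median of -0.93, and 2 rose, Kit and the prostaglandin receptor gene Ptger3 at 1.48. Adgrg3 and Adgrl4, adhesion-class receptors, fell by 3.96 and 3.87, and the mucin gene Muc13 by 3.55. Cd27, a costimulatory receptor that also marks progenitors, fell by 3.06 and Cd93 by 2.77. Il12a, a subunit gene of interleukins 12 and 35, was another gene of the progenitor, at 8.55, 7.98 and 7.77 in CDP against 4.01 and 4.61 in CD172a DC.

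The cell division programme was lower throughout CD172a DC. Of 43 measured mitosis genes 41 fell and none rose (limma, also at an unadjusted p under 0.05), with a median of -1.96, where 14.2% of all genes fell. The 2 that did not pass were Ccnb2 at -1.36 and Smc4 at -0.63. Birc5, which encodes survivin of the chromosomal passenger complex, stood at 9.26, 8.98 and 9.33 in CDP and at 5.75 and 5.98 in CD172a DC, and fell by 3.33 ± 0.33. The spindle checkpoint kinase gene Ttk fell by 2.96 ± 0.28, the mitotic kinase genes Plk1 and Cdk1 by 2.75 ± 0.25 and 2.56 ± 0.35, the kinetochore gene Cenpk by 2.66 ± 0.44 and the cytokinesis gene Anln by 2.39 ± 0.33. Mki67, the gene of the proliferation antigen Ki-67, stood at 10.22, 10.77 and 10.61 in CDP and at 9.04 and 9.03 in CD172a DC. Its fall of 1.5 ± 0.28 left it well above the low end of the array. Of 37 DNA replication genes 34 fell and none rose, with a median of -1.53 and none higher at an unadjusted p under 0.05 in limma, and Rrm2, Gins3 and Tk1 did not pass. The helicase genes Mcm7 and Mcm6 fell by 2.95 ± 0.27 and 2.62 ± 0.29, the helicase cofactor genes Gins2 and Gins1 by 2.54 ± 0.32 and 2.19 ± 0.41, and the licensing gene Cdc6 by 2.17 ± 0.37.

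The path through pre-CD4 separated both lists. For mitosis, 42 of 43 members had a higher mean in pre-CD4 than in CDP, beside 11611 of all 22180 genes. Of these members 3 were called, where 2.32% of all genes were called higher, 2.23% lower and 4.54% in either direction. Between CD172a DC and pre-CD4 all 43 mitosis genes were called lower, where 8.02% of all genes were lower, 4.7% higher and 12.7% either. Plk1 stood at 8.61, 8.72 and 8.79 in CDP, at 9.20 and 9.31 in pre-CD4 and at 5.59 and 6.31 in CD172a DC. For DNA replication, 5 of 37 members had a higher mean in pre-CD4 than in CDP, 3 were called lower, and 20 were called lower in CD172a DC than in pre-CD4. The median of the list was 8.41 in CDP, 7.80 in pre-CD4 and 6.72 in CD172a DC, whereas that of mitosis was 8.71, 9.25 and 6.52. Among inhibitors and regulators of cell cycle exit 9 of 21 rose, led by the antiproliferative genes Btg2 at 2.87 ± 0.39 and Btg1 at 2.24 ± 0.24, with the retinoblastoma gene Rb1 at 1.43 ± 0.25. The 4 that fell were Ccnd2, a D-type cyclin gene, at -1.52, Rbl1, Ccng2 and Cdkn2d. The call of Ccnd2 was lost without CD172a DC array 1, at -1.49.

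The promoters of these genes are shown because members of each list fell together and hold motifs known from cell cycle genes. Mitotic promoters commonly pair CCAAT boxes, bound by NF-Y, with a cell cycle homology region, bound by the MuvB complexes, and replication promoters often hold E2F sites. The sequences are RefSeq promoters of mouse build GRCm38.p6, from 250 bases before to 50 bases after the start of the transcript, written 5′ to 3′ along the gene. They belong to the 3 largest falls of the mitosis list with both CCAAT and TTTGAA and the 2 largest falls of the replication list with GGCGGGAA. Capitals mark CCAAT and TTTGAA in Ttk, Plk1 and Cdk1, and CCAAT and GGCGGGAA in Uhrf1 and Rrm1. Matches on either strand are marked, so some capitals are the reverse complement of a motif.
Ttk promoter, chr9:83834439-83834738, plus strand: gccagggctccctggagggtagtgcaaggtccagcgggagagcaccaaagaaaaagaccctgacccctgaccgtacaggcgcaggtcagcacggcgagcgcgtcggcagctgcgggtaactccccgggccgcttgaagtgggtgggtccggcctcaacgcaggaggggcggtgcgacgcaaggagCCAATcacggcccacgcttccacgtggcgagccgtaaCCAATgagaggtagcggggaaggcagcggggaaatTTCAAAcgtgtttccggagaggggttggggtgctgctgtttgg
Plk1 promoter, chr7:122159185-122159484, plus strand: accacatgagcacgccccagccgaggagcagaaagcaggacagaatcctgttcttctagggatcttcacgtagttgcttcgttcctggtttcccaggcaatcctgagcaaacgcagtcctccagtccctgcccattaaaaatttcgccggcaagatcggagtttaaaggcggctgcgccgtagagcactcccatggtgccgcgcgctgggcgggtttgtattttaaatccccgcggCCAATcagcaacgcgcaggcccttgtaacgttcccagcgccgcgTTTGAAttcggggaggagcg
Cdk1 promoter, chr10:69352863-69353162, minus strand: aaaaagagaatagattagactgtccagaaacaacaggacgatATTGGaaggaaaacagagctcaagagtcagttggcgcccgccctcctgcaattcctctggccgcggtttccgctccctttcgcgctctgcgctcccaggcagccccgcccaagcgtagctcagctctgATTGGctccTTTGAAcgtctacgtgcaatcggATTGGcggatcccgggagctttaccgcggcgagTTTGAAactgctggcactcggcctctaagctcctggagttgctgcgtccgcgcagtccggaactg
Uhrf1 promoter, chr17:56303087-56303386, plus strand: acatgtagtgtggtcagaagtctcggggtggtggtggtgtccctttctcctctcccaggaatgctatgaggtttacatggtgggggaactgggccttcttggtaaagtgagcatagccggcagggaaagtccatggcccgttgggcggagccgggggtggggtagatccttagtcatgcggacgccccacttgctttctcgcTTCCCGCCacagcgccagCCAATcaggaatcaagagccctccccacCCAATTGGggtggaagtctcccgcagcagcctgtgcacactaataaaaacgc
Rrm1 promoter, chr7:102441445-102441744, plus strand: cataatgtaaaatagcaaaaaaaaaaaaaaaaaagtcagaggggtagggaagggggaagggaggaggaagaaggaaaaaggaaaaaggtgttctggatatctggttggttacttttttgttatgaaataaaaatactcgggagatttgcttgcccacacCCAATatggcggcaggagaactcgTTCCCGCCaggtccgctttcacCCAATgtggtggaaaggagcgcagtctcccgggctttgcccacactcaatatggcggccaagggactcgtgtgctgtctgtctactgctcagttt

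CCAAT was found in 31 of 39 mitosis promoters (79.5%) and in 37.4% of all 32851 promoters of the table. TTTGAA, the core of the cell cycle homology region, was found in 28 of 39 mitosis promoters (71.8%) and in 17.9% of all. In Plk1 the CCAAT began 14 bases before the start of the transcript and the TTTGAA lay 30 bases after it. GGCGGGAA was in 6 of 36 replication promoters (16.7%), in none of 39 mitosis promoters and in 2.19% of all. Several promoters belong to 1 gene, and 36 of 43 mitosis genes and 31 of 37 replication genes were matched to the table. Among called genes as a whole these shares were near those of all promoters, at 41.2% for CCAAT and 15.8% for TTTGAA in falling genes, except that GGCGGGAA was in 4.88% of their promoters. Motif matches are a description of the letters in these windows.

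**Figure D2:**
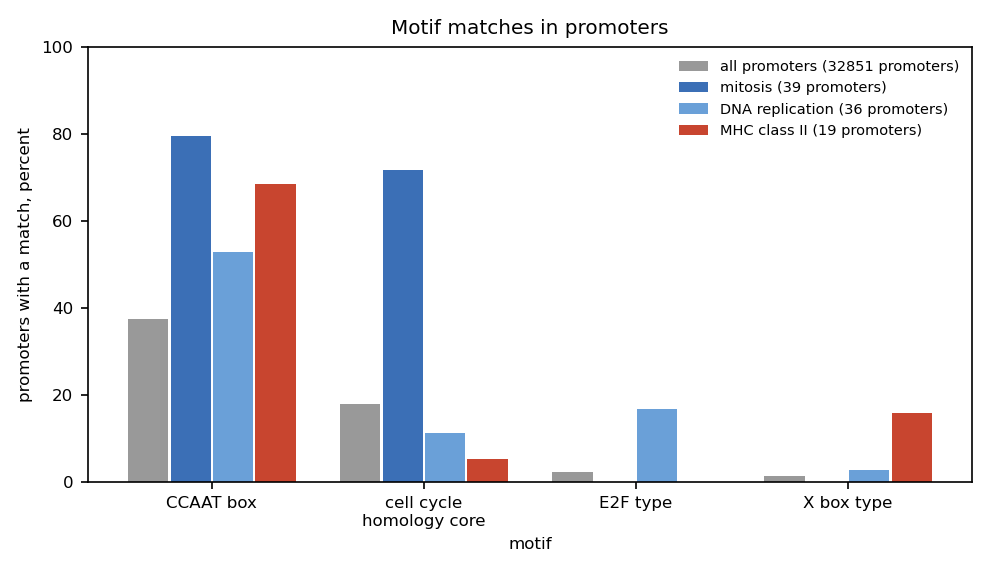
Share of promoters (y axis, percent) with a match to each of 4 motifs on either strand (x axis), for all 32851 promoters and for the promoters of 3 gene lists. Both CCAAT (79.5%) and the cell cycle homology core (71.8%) were more frequent in mitosis promoters than in all promoters (37.4% and 17.9%).

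Biosynthesis was lower as well. Of 35 genes of ribosome biogenesis 30 fell and none rose (limma, also at an unadjusted p under 0.05), with a median of -1.16. Dkc1, the pseudouridine synthase of small nucleolar ribonucleoproteins, stood at 8.56, 8.56 and 8.67 in CDP, at 7.27 and 7.12 in pre-CD4 and at 5.86 and 6.28 in CD172a DC. Nhp2, of the same particle, fell by 2.47 ± 0.36, and Nop16 and Ppan, of large subunit assembly, by 2.17 ± 0.30 and 1.91 ± 0.34. In contrast to mitosis, no member of this list had a higher mean in pre-CD4 than in CDP, beside 11611 of all 22180 genes. Already called lower there were 22 of 35. Between pre-CD4 and CD172a DC 5 were called lower. Of all genes 2.23% were called lower in pre-CD4 than in CDP, and 8.02% in CD172a DC than in pre-CD4. Myc, the regulator of many of these genes, stood at 9.58, 9.02 and 9.06 in CDP and at 8.63 and 7.82 in CD172a DC. Its fall of 1.00 ± 0.28 (adjusted p = 0.0203) lost its call under quantile and scale normalization, without CDP array 1 and without CD172a DC array 2. Of 20 genes of nucleotide and amino acid synthesis 14 fell and none rose (limma, also at an unadjusted p under 0.05), with a median of -1.55. Atic and Paics, of purine synthesis, fell by 2.86 ± 0.36 and 2.27 ± 0.23, the serine enzyme gene Shmt2 by 2.70 ± 0.29 and the pyrimidine gene Umps by 2.26 ± 0.26.

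In both pathways of energy metabolism that were read, more genes fell than rose. Of 25 oxidative phosphorylation genes 17 fell and none rose (limma, also at an unadjusted p under 0.05), with a median of -1.14, but the number was 8 without CD172a DC array 1 and 12 after scale normalization. Ndufa9, a complex I subunit, stood at 8.89, 9.02 and 8.68 in CDP and at 6.07 and 6.97 in CD172a DC, and fell by 2.34 ± 0.31. Atp5b, the catalytic subunit of ATP synthase, fell by 2.04 ± 0.24 and differed by -1.35 from CD24 DC (adjusted p = 0.0047). Cox4i1 stood at 7.96 and 10.05 in the CD172a DC arrays and at 10.66 to 11.12 in CDP, so array 1 alone was far below, and its call was lost without that array, without the arrays numbered 1 and under scale normalization. Glycolysis genes moved in both directions, with 8 of 18 lower and 4 higher, beside 14.2% and 8.68% of all genes. Their median was -0.47. Pgk1, phosphoglycerate kinase, stood at 9.78, 9.63 and 9.75 in CDP and at 6.73 and 7.27 in CD172a DC, and fell by 2.72 ± 0.22. Tpi1 and Pgam1, also of glycolysis, fell by 2.68 ± 0.34 and 1.84 ± 0.25. The rising members were the regulatory kinase gene Pfkfb3 at 1.25 ± 0.21, the glucose and lactate carriers Slc2a3 at 1.16 and Slc16a3 at 0.84, and Pfkp at 0.84. In cholesterol synthesis 2 of 16 fell and 2 rose, beside 14.2% and 8.68% of all genes, with a median of -0.09 that was 0.03 after quantile normalization. Fdps, farnesyl diphosphate synthase, fell by 3.00 ± 0.38 and Nsdhl by 1.34 ± 0.28, while Srebf2 and Pmvk rose by 0.96 ± 0.20 and 0.93 ± 0.25. The call of Nsdhl was lost without CD172a DC array 1, that of Pmvk without array 2 and that of Srebf2 without the arrays numbered 1.

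**Figure D3:**
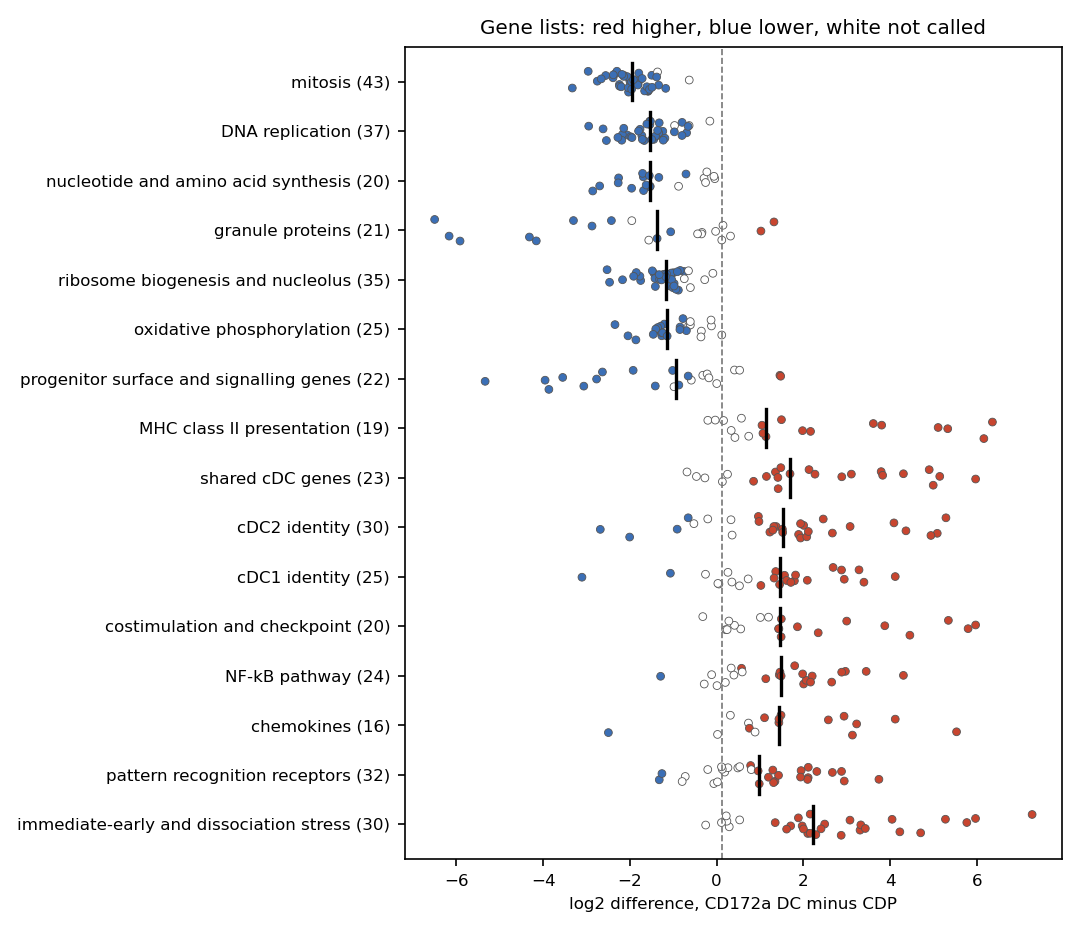
Log2 difference, CD172a DC minus CDP (x axis), of each measured member of 16 gene lists (rows, with the number of members). Black bars are list medians, and the dashed line is the median of all genes at 0.13. Mitosis (median -1.96) and DNA replication (-1.53) lie wholly to the left of 0, and the median of the immediate-early list is 2.22.

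MHC class II genes were the main rising group that the gate itself selected. Of 19 genes of class II presentation 12 rose and none fell (limma, also at an unadjusted p under 0.05), with a median of 1.14, where 8.68% of all genes rose. H2-Aa, H2-Ab1 and H2-Eb1 encode the chains detected in the sort, and their rises of 6.36 ± 0.41, 5.33 ± 0.41 and 6.16 ± 0.28 are a description of the gate. Ciita, the master regulator of class II transcription, stood at 5.25, 5.48 and 5.13 in CDP, at 6.23 and 6.74 in pre-CD4 and at 8.79 and 9.01 in CD172a DC. It rose by 3.61 ± 0.28 (adjusted p = 1.71e-06), with no overlap between any of the 3 stages. H2-Eb2, a beta chain gene of the E locus, stood at 4.51, 4.16 and 3.88 in CDP and at 9.0 and 9.58 in CD172a DC, and was 2.63 above CD24 DC (adjusted p = 0.0021). H2-DMb2, of the peptide exchange factor DM, rose by 3.81 ± 0.23 and stood 1.42 above CD24 DC (adjusted p = 0.0021). The DNA-binding partners Rfx5, Rfxap and Rfxank did not pass, at 0.42, -0.20 and -0.03. The invariant chain gene Cd74 was not analysed here, its probe set being listed with more than 1 symbol, and the classical MHC genes are a family of similar sequences whose values are uncertain.

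Class II promoters carry an X box and a Y box, the latter being a reverse CCAAT box, which together bind the RFX and NF-Y factors that recruit CIITA. The promoter of H2-Aa, the largest rise of the list, and those of H2-Eb1 and H2-Eb2, the largest rises with the letters CTAGCAAC, searched as an X box type motif, are shown in the same build and window. Capitals mark CCAAT and CTAGCAAC on either strand.
H2-Aa promoter, chr17:34287774-34288073, minus strand: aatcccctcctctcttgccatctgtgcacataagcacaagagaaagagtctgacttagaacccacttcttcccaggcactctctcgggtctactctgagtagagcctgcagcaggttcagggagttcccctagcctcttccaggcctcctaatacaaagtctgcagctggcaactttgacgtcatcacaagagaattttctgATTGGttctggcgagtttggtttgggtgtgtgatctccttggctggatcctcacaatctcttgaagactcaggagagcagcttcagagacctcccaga
H2-Eb1 promoter, chr17:34305617-34305916, plus strand: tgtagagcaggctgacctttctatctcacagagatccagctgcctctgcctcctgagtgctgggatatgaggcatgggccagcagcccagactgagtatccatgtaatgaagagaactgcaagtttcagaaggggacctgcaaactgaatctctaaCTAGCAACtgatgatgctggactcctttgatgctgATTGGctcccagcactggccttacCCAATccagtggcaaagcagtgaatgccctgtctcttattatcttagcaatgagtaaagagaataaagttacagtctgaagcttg
H2-Eb2 promoter, chr17:34325425-34325724, plus strand: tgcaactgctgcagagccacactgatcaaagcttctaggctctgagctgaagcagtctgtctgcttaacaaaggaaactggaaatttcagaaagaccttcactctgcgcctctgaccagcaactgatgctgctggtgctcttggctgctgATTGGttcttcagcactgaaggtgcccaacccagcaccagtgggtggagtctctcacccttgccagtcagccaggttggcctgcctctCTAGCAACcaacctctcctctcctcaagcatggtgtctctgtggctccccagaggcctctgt

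CCAAT was in 13 of 19 class II promoters (68.4%) and CTAGCAAC in 3 of 19 (15.8%), against 37.4% and 1.32% of all promoters. In H2-Aa the CCAAT was reversed, and it began 48 bases before the start of the transcript. In H2-Eb1 CTAGCAAC began 94 bases before the start and a reversed CCAAT 59 bases before it. In H2-Eb2 the exact match to CTAGCAAC began 12 bases before the start and a reversed CCAAT 100 bases before it. Upstream of that CCAAT the letters ccagcaac are close to the searched ones but not an exact match, and were not marked. The order of both elements in H2-Eb2 thus cannot be read from exact matches. A match to these letters is a description and not an X box. Of 19 genes of the list 15 were matched to the promoter table. The other motifs searched gave small shares. GAGGAAGTG, a PU.1 type site, was in 2.62% of promoters of rising genes, 1.52% of falling genes and 1.57% of all. GGGACTTTC, an NF-kB type site, was in 0.732%, 0.194% and 0.353%, and GAAANNGAA, an interferon response type, in 10.8%, 6.79% and 8.56%.

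Of 16 genes of MHC class I presentation 6 fell, 1 rose and 9 were not called, with a median of -0.34, where 14.2% of all genes fell and 8.68% rose. Calr and Canx, the chaperones that fold class I chains, stood at 8.83 and 8.76 and at 8.60 and 9.07 in CD172a DC, against 10.40 to 10.46 and 10.38 to 10.54 in CDP. They fell by 1.64 ± 0.20 and 1.61 ± 0.21. Tap2, of the peptide transporter, fell by 1.13 ± 0.29, the trimming peptidase gene Erap1 by 0.84 ± 0.20 and the loading chaperone gene Pdia3 by 0.78 ± 0.21. The call of Pdia3 was lost under quantile (-0.52) and scale (-0.28) normalization, without CDP array 2 or 3, without either CD172a DC array and without the arrays numbered 1. The call of Tap2 was lost without either CD172a DC array and that of Erap1 without CD172a DC array 2, and both without the arrays numbered 1. Nlrc5, the class I counterpart of Ciita, rose by 0.74 ± 0.24 (adjusted p = 0.0379), a call lost under scale normalization and without any 1 of the 5 arrays. Against CD24 DC, 9 of the 16 were lower in CD172a DC and none higher, where 3.21% of all genes were called lower, 2.37% higher and 5.59% either.

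Costimulatory genes rose steeply. Of 20 measured genes 12 rose and none fell (limma, also at an unadjusted p under 0.05), with a median of 1.46, where 8.68% of all genes rose. Cd86 stood at 4.91, 5.75 and 4.83 in CDP, at 6.57 and 5.84 in pre-CD4 and at 10.89 and 11.03 in CD172a DC, and rose by 5.80 ± 0.31. Cd80, the other ligand of CD28, stood at 4.57, 5.15 and 5.01 against 10.04 and 10.46, and rose by 5.34 ± 0.37. Both were near the low end of the array in CDP, and Cd80 also in pre-CD4. Havcr2, the gene of the checkpoint receptor TIM-3, rose by 4.46 ± 0.36, the activation marker gene Cd83 by 3.88 ± 0.33 and Cd274, the gene of PD-L1, by 3.00 ± 0.26. Slamf7, a self-ligand receptor, took a different course, at 9.01 and 9.60 in pre-CD4 on the way from 5.10, 5.43 and 5.28 in CDP to 11.22 and 11.26. Cd86, Cd80, Cd83 and Havcr2 were not called between CD172a DC and CD24 DC, with differences of 0.11, 0.88, -0.68 and -0.59, and Cd274 was 0.97 higher (adjusted p = 0.044).

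Lineage genes rose in both the cDC2 and the cDC1 list. Of 30 cDC2 genes 22 rose and 4 fell, beside 8.68% and 14.2% of all genes, with a median of 1.52. Clec4a4 stood at 3.08, 2.91 and 3.25 in CDP, at 2.62 and 2.87 in pre-CD4 and at 7.86 and 8.47 in CD172a DC, and rose by 5.09 ± 0.24 (adjusted p = 3.75e-08). Clec4a1, another lectin receptor of the family, rose by 5.29 ± 0.28, and Clec4a3 by 4.94 ± 0.78 from CDP levels between 2.72 and 5.45. The Clec4a values are uncertain, since these genes are similar copies. Ltb, the gene of lymphotoxin beta, rose by 3.08 ± 0.26. Cd7 peaked at the progenitor, at 11.16 and 11.13 in pre-CD4, on the way from 5.02 to 6.04 in CDP to 9.46 and 9.88 in CD172a DC.

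The 4 cDC2 genes that fell were Ccr2, Clec12a, Clec10a and Cx3cr1. Their share of the list, 13.3%, was near the 14.2% of all genes that fell. Ccr2, the receptor that brings monocytes and pre-DCs out of marrow, stood at 9.45, 9.73 and 9.65 in CDP, at 10.32 and 10.75 in pre-CD4 and at 6.98 and 6.88 in CD172a DC. It fell by 2.68 ± 0.36, and Clec12a, Clec10a and Cx3cr1 by 2.01, 0.91 and 0.66. The lectin genes Mgl2 and Cd209a and the Notch receptor gene Notch2 did not pass, at -0.52, -0.20 and 0.36, although Notch2 was called higher under quantile and scale normalization, at 0.66 in each. Of the 30 cDC2 genes, 16 were higher and 1 lower in CD172a DC than in CD24 DC, beside 2.37% and 3.21% of all genes.

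The cDC1 list rose in 16 of 25 members and fell in 2, with a median of 1.45 near that of the cDC2 list. Against CD24 DC, 24 of the 25 were lower in CD172a DC and none higher, beside 3.21% and 2.37% of all genes. Batf3, a factor that cDC1 development requires, stood at 4.53, 5.38 and 4.97 in CDP and at 7.42 and 9.06 in CD172a DC, and rose by 3.28 ± 0.41. It differed by -1.10 from its mean of 9.34 in CD24 DC, which did not pass the test (adjusted p = 0.17). Id2, whose product blocks E proteins, measured 5.32, 4.95 and 5.15 in CDP and at 8.34 and 8.74 in CD172a DC, and differed by -1.48 from CD24 DC (adjusted p = 0.00051). The endosomal receptor gene Tlr3 rose by 2.88 ± 0.31 to 6.66 and 6.77, and differed by -3.52 from CD24 DC. Cd8a rose by 2.09 ± 0.32 to 6.30 and 6.76, against 10.36 in CD24 DC. Xcr1, the chemokine receptor of cDC1, reached 5.80 and 5.62, and its rise of 1.36 ± 0.40 (adjusted p = 0.0243) lost its call under quantile and scale normalization and without CDP array 2, CDP array 3 or either CD172a DC array. The part of cDC1 cells in the sorted population was not tested.

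Irf8 was the main exception of that list. It stood at 11.53, 11.51 and 11.44 in CDP, at 12.05 and 11.92 in pre-CD4 and at 7.97 and 8.80 in CD172a DC. The fall of 3.11 ± 0.24 (adjusted p = 1.71e-06) was called after the pre-CD4 stage, at -3.60, and CD24 DC had a mean of 11.90. Irf4 took the reverse course, at 4.27, 3.78 and 4.24 in CDP, 6.53 and 7.67 in pre-CD4 and 8.09 and 8.84 in CD172a DC. Its rise of 4.37 ± 0.35 was called over both steps, at 3.00 and 1.36, and CD24 DC stood 2.99 lower (adjusted p = 0.00021). The call of the second step was lost without pre-CD4 array 1 (0.79), CD172a DC array 2 (0.99), CD24 DC array 2 or the arrays numbered 1 (1.17), and with only the arrays of the groups compared. The arrays of these 3 stages did not overlap for either gene.

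Genes shared by conventional DCs rose in 18 of 23 members and fell in none, with a median of 1.69 and 1 member lower at an unadjusted p under 0.05 in limma. Anpep, the gene of the aminopeptidase CD13, stood at 4.8, 5.10 and 5.25 in CDP, at 6.52 and 6.81 in pre-CD4 and at 9.91 and 10.48 in CD172a DC. The metalloprotease gene Adam19 rose by 4.99 ± 0.29 and the lysophospholipid receptor gene P2ry10 by 4.90 ± 0.32. Zbtb46 stood at 5.02, 5.23 and 5.15 in CDP, at 6.62 and 6.22 in pre-CD4 and at 6.44 and 6.53 in CD172a DC. Its rise of 1.36 ± 0.23 was called in pre-CD4, at 1.29, but not without pre-CD4 array 1 or the arrays numbered 1, and 1 of its alleles carries the reporter in every group. Klrd1, the gene of CD94, rose by 3.83 ± 0.56 and was 3.94 above CD24 DC (adjusted p = 0.00078). Of the 23 shared genes 12 were already called higher in pre-CD4.

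**Figure D4:**
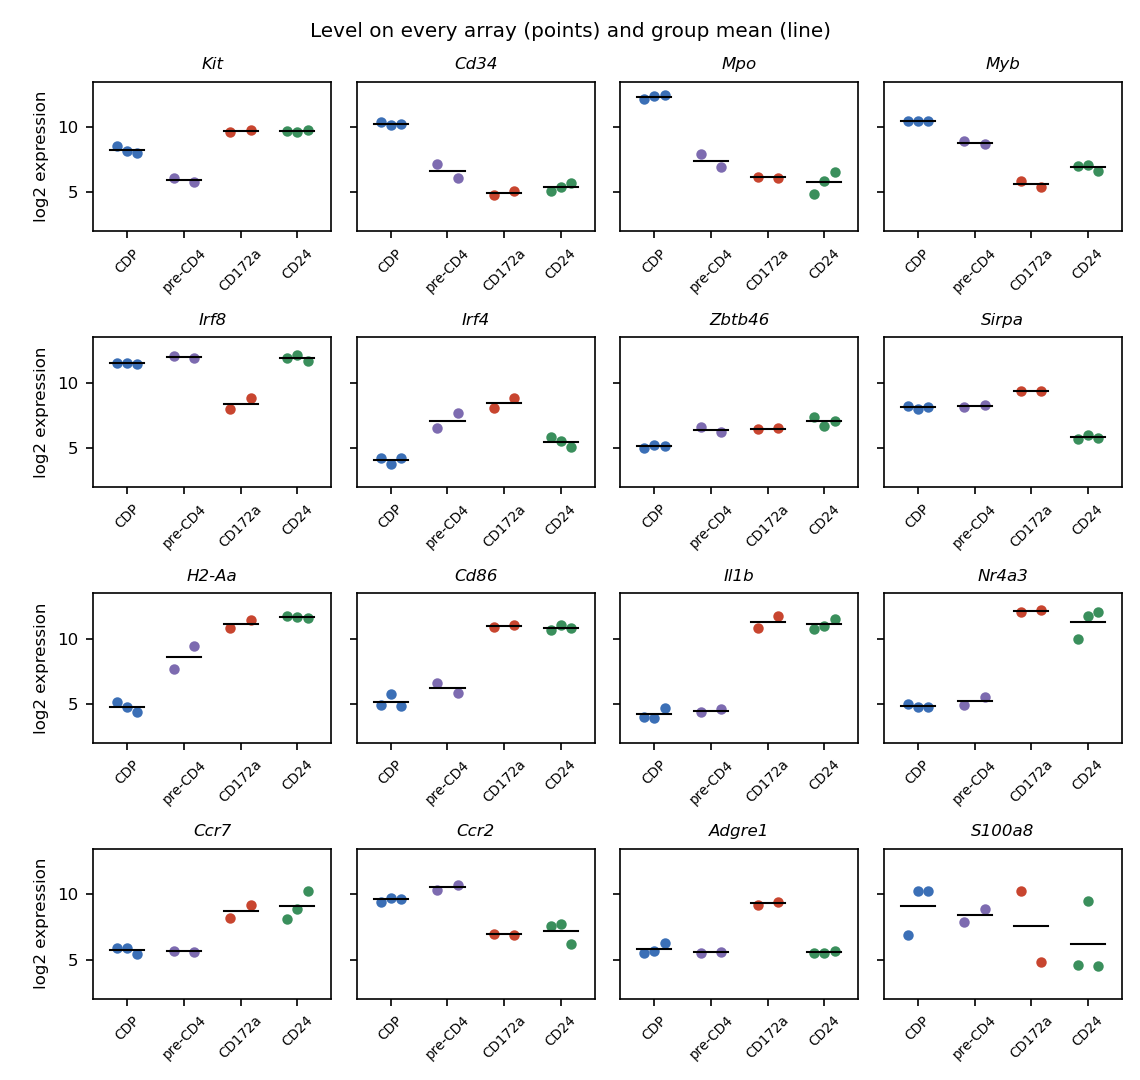
Log2 expression (y axis) of 16 genes on every array of CDP, pre-CD4, CD172a DC and CD24 DC (x axis), with lines at the group means. Kit is lowest in pre-CD4 and above CDP in both DC groups, Irf8 and Irf4 take opposite courses in CD172a DC, and S100a8 splits the arrays within groups.

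Of 54 DC transcription factors measured, 27 rose and 9 fell, with a median of 0.71. Over all genes 8.68% rose and 14.2% fell, so the falling share of the list, 16.7%, was near that of all genes. Bhlhe40, a basic helix-loop-helix repressor, stood at 4.59, 5.36 and 5.35 in CDP, at 7.70 and 8.23 in pre-CD4 and at 10.39 and 10.50 in CD172a DC, and was 2.08 above CD24 DC (adjusted p = 0.006). Ahr, the aryl hydrocarbon receptor, rose by 4.14 ± 0.34 in 2 called steps of 1.53 and 2.60. The call of the first step was lost under scale normalization and without CDP array 1, CDP array 3 or either pre-CD4 array. Klf4, a factor that a part of cDC2 requires, stood at 6.61, 7.38 and 7.57 in CDP, at 9.29 and 9.58 in pre-CD4 and at 8.39 and 9.76 in CD172a DC. Spib, whose ETS family product acts in B cells and plasmacytoid DCs, peaked at 8.30 and 8.84 in pre-CD4 between 3.98, 4.41 and 4.19 in CDP and 6.91 and 7.02 in CD172a DC. Runx3 stood at 7.25, 7.14 and 7.02 in CDP, at 6.42 and 6.44 in pre-CD4 and at 8.45 and 9.07 in CD172a DC. Spi1, the gene of the pan-myeloid factor PU.1, rose by 0.68 ± 0.18 (adjusted p = 0.0159), a call lost without either CD172a DC array and without the arrays numbered 1. Cebpa, Cebpb, Gfi1, Mycl and Mycn did not pass, at -0.53, -0.13, -0.30, 0.17 and 0.58, and Zeb2 was not analysed here. Gfi1 was called lower under quantile and scale normalization, at -0.52 in each, and Mycn higher without CDP array 2, at 0.81.

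Activation genes formed the group with the highest list median. Of 30 immediate-early and dissociation stress genes 24 rose and none fell (limma, also at an unadjusted p under 0.05), with a median of 2.22. In CD172a DC 22 were called higher than in pre-CD4. Of all genes 8.68% rose, and 4.7% were higher in CD172a DC than in pre-CD4. Nr4a1 stood at 6.41, 6.38 and 6.12 in CDP, at 6.91 and 7.34 in pre-CD4 and at 11.76 and 12.39 in CD172a DC, and rose by 5.77 ± 0.37. Nr4a2 rose by 5.28 ± 0.47, the stress factor gene Atf3 by 4.70 ± 0.43 and the zinc finger gene Egr2 by 4.22 ± 0.46. Those not called were Dnajb1, Hsph1, Hspa8, Dusp2, Ier2 and Socs3, between -0.25 and 0.53, whereas the heat-shock genes Hspa1a and Hspa1b, near-identical copies with uncertain values, rose by 2.41 and 3.43. In CD24 DC, which is likewise taken to come from digested spleen, the list median level was 9.03 against 9.57 in CD172a DC, 7.06 in pre-CD4 and 6.62 in CDP. The part of the enzymatic digestion in these values cannot be told apart from stage and tissue.

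Of 24 NF-kB pathway genes 16 rose and 1 fell, with a median of 1.47. Traf1, an adaptor that NF-kB induces, stood at 5.36, 5.54 and 5.02 in CDP and at 9.38 and 9.85 in CD172a DC, and rose by 4.31 ± 0.31. The feedback inhibitors Tnfaip3, Nfkbie and Nfkbia rose by 3.45 ± 0.29, 2.97 ± 0.31 and 2.20 ± 0.20. Rel stood at 8.35, 8.92 and 8.56 in CDP, at 8.94 and 9.51 in pre-CD4 and at 11.13 and 11.39 in CD172a DC. Relb, the subunit that splenic cDC2 depend on, rose by 2.01 ± 0.28, and Rela did not pass, at 0.34. The gene that fell was the kinase Ikbke, at -1.29. Between pre-CD4 and CDP 3 members were called higher and 1 lower, and between CD172a DC and pre-CD4 13 were called higher and none lower. Of all genes 2.32% were higher and 2.23% lower over the former step, and 4.7% and 8.02% over the latter.

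Secreted mediators followed. Of 21 cytokine genes 8 rose and 1, Il12a, fell, beside 8.68% and 14.2% of all genes. Il10, the anti-inflammatory cytokine, stood at 3.39, 3.32 and 3.14 in CDP and at 6.01 and 7.09 in CD172a DC, and rose by 3.27 ± 0.47. Il18 rose by 3.10 ± 0.42 to 7.93 and 7.92, and Tnf by 2.90 ± 0.22 to 10.02 and 9.93. Tnf already stood at 6.83 to 7.25 in CDP, above the low end of the array, whereas Il10 did not. Of 16 chemokine genes 11 rose and 1 fell, with a median of 1.44. Ccl5 stood at 5.59, 5.53 and 5.52 in CDP, at 5.42 and 5.40 in pre-CD4 and at 10.36 and 11.80 in CD172a DC, and rose by 5.53 ± 0.39. Cxcl9, a ligand of CXCR3, rose by 4.12 ± 0.31 and differed by -2.82 from CD24 DC (adjusted p = 0.00011). Ccl3 and Ccl4 rose by 3.23 ± 0.39 and 2.94 ± 0.44, and Cxcl16 and Ccl2 by 3.13 ± 0.34 and 2.58 ± 0.35. The gene that fell was Ccl9, at -2.50.

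Among receptors for migration 11 of 26 rose and 4 fell, with a median of 0.60 and 7 rising genes without either CD172a DC array. Ccr7, which guides DCs to T cell zones, stood at 5.88, 5.89 and 5.41 in CDP, at 5.67 and 5.57 in pre-CD4 and at 8.19 and 9.21 in CD172a DC. It rose by 2.98 ± 0.48 (adjusted p = 0.000599) and differed by -0.39 from CD24 DC (adjusted p = 0.83). Gpr183, the oxysterol receptor that positions cDC2 in the spleen, rose by 2.11 ± 0.21 and was 1.88 above CD24 DC (adjusted p = 0.00015). Ccr3 rose by 2.56 ± 0.38 to 4.63 and 6.46, levels that spread from the low end of the array. S1pr3, a sphingosine phosphate receptor of the progenitor, fell by 3.52 ± 0.37. Of 32 growth factor and cytokine receptors 9 rose and 5 fell, with a median of 0.30. Over all genes 8.68% rose and 14.2% fell, so the falling shares of both receptor lists were near that of all genes. Il21r rose by 3.30 ± 0.31, Il13ra1 by 2.88 ± 0.25 and Il10ra by 2.33 ± 0.26, of which Il13ra1 and Il10ra were already called in pre-CD4. The falling genes were Il18rap at -1.66, Il1r1, Ifnar2, Csf1r and Il17ra. The call of Il18rap was lost without CD172a DC array 2, at -1.29.

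Of 32 pattern recognition receptors 18 rose and 2 fell, with a median of 0.97. Tlr7, the endosomal sensor of single-stranded RNA, stood at 5.69, 5.43 and 5.16 in CDP, at 3.65 and 4.88 in pre-CD4 and at 8.87 and 9.47 in CD172a DC. It rose by 3.74 ± 0.33 and stood 5.36 above CD24 DC, whose mean was 3.81. Tlr11 and Tlr13 rose by 2.94 ± 0.41 and 2.31 ± 0.59, the dectin 2 gene Clec4n by 2.67 ± 0.26 and the peptidoglycan sensor gene Nod1 by 2.11 ± 0.21. The call of Tlr13 was lost without either CD172a DC array. The genes that fell were Cgas and Sting1, sensor and adaptor of the cytosolic DNA response, at -1.32 and -1.26. Of 30 interferon-stimulated genes 14 rose and 1, Gbp3, fell by 2.08 ± 0.30, with a median of 0.63 and 8 rising genes without CD172a DC array 2. Oas2 rose by 2.73 ± 0.36 and was 2.78 above CD24 DC (adjusted p = 0.00039). Irf7 rose by 1.83 ± 0.30 and Zbp1 by 2.11 ± 0.27.

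Of 30 Fc, complement and scavenger receptors 18 rose and 1 fell, with a median of 1.05. Pirb, an inhibitory receptor for class I, stood at 5.71, 6.31 and 6.45 in CDP, at 9.49 and 9.32 in pre-CD4 and at 9.02 and 9.61 in CD172a DC. The integrin genes Itgax and Itgb2 had the same form, called higher in pre-CD4 by 3.54 and 2.40 and not called thereafter, at 0.26 and -0.07. CDPs were sorted without CD11c and pre-CD4 cells with it, so the rise of Itgax is a description of the gate. Cd36, the scavenger receptor of cDC1, rose by 2.69 ± 0.34 and differed by -4.02 from CD24 DC. The adhesion and cytoskeleton list split, with 10 of 35 higher and 9 lower and a median of -0.04 that was 0.14 without CD172a DC array 1. Itga4, an integrin chain gene, rose by 2.12 ± 0.28, Alcam, a ligand of CD6, by 1.95 ± 0.27 and Lsp1 by 1.69 ± 0.17, whereas S100a10 fell by 2.47 ± 0.43 and Itga6 by 1.81 ± 0.23. Of 27 lysosomal genes 7 rose and 4 fell, beside 8.68% and 14.2% of all genes, with a median of 0.18. Plbd1, a lysosomal phospholipase-like gene, stood at 5.64, 6.27 and 6.22 in CDP, at 9.94 and 11.07 in pre-CD4 and at 11.08 and 11.56 in CD172a DC. The cathepsin C gene Ctsc rose by 1.83 ± 0.29, while Npc2, of cholesterol export, fell by 1.85 ± 0.20, Hexa by 1.79 ± 0.22, and Ctsd and Lamp1 by 1.37 and 1.27.

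Of 21 Notch pathway genes 4 rose and 2 fell, beside 8.68% and 14.2% of all genes, with a median of 0.16 that was -0.04 after scale normalization. The targets Hes1 and Dtx1 rose by 2.08 ± 0.37 and 1.94 ± 0.23, the ligand gene Jag1 by 2.30 ± 0.26 and the glycosyltransferase gene Lfng by 1.52 ± 0.31. Dtx1 stood at 5.30, 5.24 and 4.96 in CDP, at 5.27 and 5.11 in pre-CD4 and at 7.05 and 7.16 in CD172a DC, and was 1.63 above CD24 DC (adjusted p = 0.00068). Hes1 did not differ by the test from CD24 DC, at 0.20 (adjusted p = 0.9). Notch1 fell by 1.59 ± 0.19 and Dtx4 by 1.08 ± 0.21, the latter not called without the arrays numbered 1. Of 18 apoptosis genes 5 rose and 5 fell. Bcl2, the survival factor of progenitors, stood at 9.98, 10.28 and 10.08 in CDP, at 8.89 and 8.16 in pre-CD4 and at 7.04 and 6.90 in CD172a DC, and fell by 3.14 ± 0.34. Bcl2a1a, a related survival gene, rose by 4.99 ± 0.36, and because it belongs to a family of near-identical copies its value is uncertain. The pro-apoptotic genes Pmaip1 and Fas rose by 2.46 ± 0.30 and 1.51 ± 0.28, and Casp8 and Bak1 fell by 1.55 ± 0.29 and 1.40 ± 0.25, with the call of Casp8 lost without the arrays numbered 1.

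**Figure D5:**
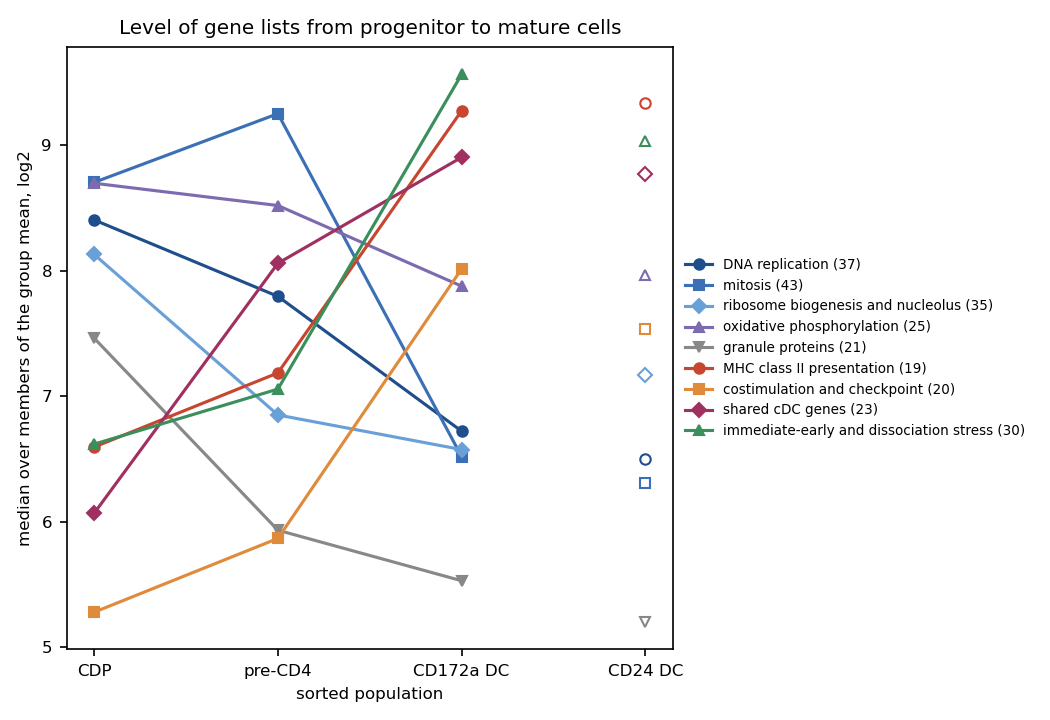
Median over the members of 9 gene lists of the mean log2 level (y axis) in CDP, pre-CD4 and CD172a DC (lines) and in CD24 DC (open symbols). Ribosome biogenesis and granule genes drop before pre-CD4, mitosis genes are higher in pre-CD4 (9.25) than in CDP (8.71) and drop to 6.52 thereafter, and costimulation and immediate-early genes climb mainly after pre-CD4.

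Markers of other cell types were read for the purity of the sorts. Among 19 monocyte and macrophage markers 9 rose and 4 fell, with a median of 0.56. Adgre1, the gene of F4/80, stood at 5.52, 5.65 and 6.23 in CDP, at 5.50 and 5.60 in pre-CD4 and at 9.20 and 9.42 in CD172a DC. It was 3.75 above CD24 DC (adjusted p = 5.3e-06). The defining genes Fcgr1 and Mertk stood at 5.46 and 5.72 and at 4.94 and 5.12 in CD172a DC, near the low end of the array, and did not pass the test. Treml4, a marker of both splenic DCs and some monocytes, rose by 2.64 ± 0.26 and differed by -2.14 from CD24 DC.

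Of 12 red pulp macrophage markers 8 rose and 1, Cd163, fell by 1.45 ± 0.25, with a median of 1.02. The mean over the list was 4.67, 4.72 and 4.70 in CDP and 5.75 and 5.99 in CD172a DC. Spic, the factor that red pulp macrophages require, stood at 4.44, 4.55 and 4.19 in CDP, at 4.30 and 4.54 in pre-CD4 and at 7.55 and 7.73 in CD172a DC. Vcam1, Hmox1 and the iron exporter gene Slc40a1 rose by 2.66 ± 0.32, 2.75 ± 0.22 and 1.70 ± 0.30. Spic, Vcam1 and Hmox1 were also high in CD24 DC, at 6.99, 6.40 and 8.01, with no call between both DC populations. Cd5l, an abundant macrophage gene, reached 4.81 and 4.47, which is within the range of the olfactory receptors, and Siglec1 and Marco stood at 4.36 and 4.76 and at 5.33 and 5.70. The part of macrophage RNA in the rising scavenger and monocyte genes was not tested.

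Of the lymphoid lists, 3 of 14, 3 of 12 and 3 of 12 genes rose, beside 8.68% of all genes. The B cell markers that rose were Bank1 at 2.88 ± 0.36, Cd22 at 2.66 ± 0.24 and Ms4a1 at 2.56 ± 0.24, and Ralgps2 fell by 1.11 ± 0.24. The defining gene Cd79a stood at 4.37 and 4.45 in CD172a DC and at 3.96 to 4.66 in CDP, and Cd22 was already at 7.23 and 7.27 in pre-CD4. Of 12 T cell markers 3 rose, Cd5 by 1.72 ± 0.26, Cd3d by 0.87 ± 0.26 and Bcl11b by 0.86 ± 0.21, while Cd3e and Cd3g stood at 4.34 and 4.16 and at 3.32 and 3.33. Of 12 NK cell markers 3 rose, Klrk1 by 1.99 ± 0.35, Xcl1 by 1.97 ± 0.38 and Klre1 by 1.00 ± 0.20, and Nkg7 fell by 1.06 ± 0.28. Ncr1, the defining NK receptor gene, stood at 4.49 and 4.16 in CD172a DC. The call of Bcl11b was lost without CD172a DC array 1 and those of Ralgps2 and Nkg7 without array 2, that of Nkg7 also without CDP array 1 and under quantile normalization. That of Cd3d was lost under scale normalization and without CDP array 1, CDP array 3 or CD172a DC array 1, and that of Klre1 under scale normalization. Without the arrays numbered 1 the calls of Cd3d, Bcl11b, Klre1, Klrk1 and Xcl1 were lost. The list means were higher in CD172a DC for all 3 lists, at 5.50 and 5.38 for B cell, 5.15 and 5.05 for T cell and 5.49 and 5.15 for NK cell markers in CD172a DC, against 4.72 to 4.81, 4.68 to 4.83 and 4.62 to 4.82 in CDP.

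Of 17 plasmacytoid DC markers 4 rose and 4 fell, and 14 had a higher mean in pre-CD4 than in CDP, beside 11611 of all 22180 genes. Siglech stood at 6.42, 6.39 and 5.70 in CDP, at 8.53 and 8.04 in pre-CD4 and at 6.78 and 6.54 in CD172a DC, and Bst2 fell between the last stages by 3.34. Lag3 rose by 2.15 ± 0.25, while Atp1b1 fell by 1.44 ± 0.24 and Cox6a2 by 1.10 ± 0.24. Of 9 erythroid markers 1, the transferrin receptor gene Tfrc, fell by 1.70 ± 0.27, where 14.2% of all genes fell. Of 12 megakaryocyte and platelet markers 3 rose, Clec1b, Gp9 and Vwf at 1.69, 0.88 and 0.77, and F2rl2 fell by 1.14, while Itgb3, the member with the highest level in CD172a DC, differed by 0.65 and did not pass, although it was called without CDP array 2 (0.81) and in 3 other settings. The calls of Gp9 and Vwf were lost without either CD172a DC array and without the arrays numbered 1, that of Gp9 also without CDP array 3, and those of F2rl2 and Cox6a2 without CD172a DC array 2. Of 14 basophil, mast cell and eosinophil markers Hdc rose by 0.91 ± 0.25 and Mcpt8 fell by 3.33 ± 0.55, and Prss34, the highest in CD172a DC, did not pass, at -0.35, beside 8.68% of all genes higher and 14.2% lower. The call of Hdc was lost under scale normalization and without CDP array 3 or CD172a DC array 2. Medians of the plasmacytoid, T cell, erythroid and basophil lists were 0.17, 0.26, 0.29 and 0.09 and each changed sign under scale normalization.

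Of the genes given with values, S100a8, S100a9, Ngp, Ly6g and the list members given with a difference alone or as not passing, other than the panel of the naming rule, were named after their values were seen.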

How the data were processed

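RNA of the sorted populations went through NuGEN Ovation Pico WTA amplification before hybridisation to arrays, per the labels. The authors deposited log2 expression values, 1 per probe set and array, and how they were normalized is not given in the sources used here. Array means were close to each other, between 5.28 and 5.34. Of 35145 probe sets, 23521 had 1 gene symbol, 1814 had several and 9810 had none listed. For a gene with several probe sets the brightest over the 12 arrays was kept, which left 22180 genes. Groups came from the sample titles. Group means of all 12 arrays were fitted with limma 3.58.1 in R 4.3.3, with p-values adjusted by Benjamini-Hochberg over all genes and a call at 0.05. The script was tested on simulated data. The small number of arrays limits the precision.

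The comparison, the gene lists and the rule for named genes were chosen with earlier results of these data known. The rule takes the 15 largest called differences in each direction, up to 6 called members of each list, a panel of regulators, the sorting genes, up to 10 genes in each direction against CD24 DC, and the highest marker of each other cell type. Of 929 listed genes 857 were measured. Promoters came from RefSeq, build GRCm38.p6. Alternatives covered normalization, arrays in the fit, the replicate number, each array left out, dim genes, probe sets, the variance prior, array weights and the promoter window. Deviations from the group means of same-numbered CD172a DC and CDP arrays had correlations of -0.06 and -0.06. The deviations of 2 arrays of a group are exact opposites, and the other groups were not checked. The check therefore cannot decide whether the numbers are pairs. They were left out of the main fit, and the replicate block is given as an alternative.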

Additional observations from a re-analysis of the deposited data

Results flagged for a closer look

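CD172a DC and CD24 DC differ in how far they stand from CDP. The difference itself was tested with limma for each gene, and the 10 largest in each direction are given, as CD172a DC minus CD24 DC. The CD24 DC arrays were not close to each other. Arrays 1 and 3 correlated at 0.925, below the 0.960 between CD24 DC array 2 and CD172a DC array 2. Array weights, used in an alternative only, were 0.361, 6.63 and 0.310 for CD24 DC arrays 1, 2 and 3. Higher in CD172a DC were Sirpb1c at 7.0, Clec4a1 at 5.55, Tlr7 at 5.36, Sirpb1a at 5.28, Clec4a4 at 5.23 and Clec4a3 at 5.17. They were followed by Ptgs2 at 4.97, Gm9733 at 4.46, Il1r2 at 4.11 and Klrd1 at 3.94. Lower in CD172a DC were Gpr141b at -4.81, Xcr1 at -4.39, Ifi205 at -4.09, Cd36 at -4.02 and Cd8a at -3.83. They were followed by Gcsam at -3.74, Hepacam2 at -3.70, Pdia5 at -3.58, Tlr3 at -3.52 and Irf8 at -3.51. Values of the Sirpb1, Clec4a and Ifi205 genes are uncertain, since each has similar copies.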

How the results depend on the processing

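The number of genes called between CD172a DC and CDP depended most on the CD172a DC arrays, of which there were only 2. With 1 array left out at a time it ranged from 2808 to 5897, with 1095 to 2387 higher and 1713 to 3510 lower. The lowest values came without CD172a DC array 1 and the highest without CD24 DC array 3. Without CD172a DC array 2 the higher genes numbered 1254. Without the arrays numbered 1 there were 2839, 1172 higher and 1667 lower. With the replicate block 2902 genes were called higher and 3770 lower. Against CD24 DC, 1239 genes were called. With 1 array left out these ranged from 556 to 1461, with 287 to 542 higher and 255 to 919 lower; the higher genes numbered 301 without CD172a DC array 1 and 287 without array 2. They numbered 611 (279 higher, 332 lower) with the arrays of both groups alone, 508 (299 and 209) without the arrays numbered 1, and 2350 (944 and 1406) with array weights. The cause was not tested in these cases.

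Of 250 named genes 239 were called, and 196 of them were called in all 22 settings. Of the 11 uncalled genes 5 gained a call in some setting, Gfi1, Notch2, Mycn, Itgb3 and Bst2, the last at -1.30 to -1.81. Of the other uncalled genes, Cebpb became 0.059 after quantile normalization and 0.082 with the replicate block, and ranged from -0.42 to 0.16 with 1 array left out. Flt3 became 0.018 after quantile and 0.18 after scale normalization and 0.075 without the arrays numbered 1, and ranged from -0.56 without CD172a DC array 2 to 0.016 without array 1. Mycl became -0.061 after quantile and -0.067 after scale normalization, and ranged from -0.038 without CD172a DC array 1 to 0.39 without array 2. In a promoter window of 150 bases the shares of all promoters were 23.4% for CCAAT, 8.01% for TTTGAA, 1.20% for GGCGGGAA and 0.767% for CTAGCAAC, since a shorter window holds fewer matches.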

Other observations

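Gene families outside the lists were read by symbol, a choice made after seeing the data, and are given as counts of genes called by limma between CD172a DC and CDP. Of all genes tested 14.2% were lower and 8.68% higher. Of 71 mitochondrial ribosomal proteins 37 were lower, with a median of -0.87. Of 39 proteasome subunits 29 were lower, with a median of -0.94, and of 16 aminoacyl-tRNA synthetases 14 were lower, with a median of -1.17. Of 8 genes of the RNA exosome 6 were lower, and of 27 RNA polymerase subunits 14. Of 73 small nucleolar RNAs 23 were lower and 2 higher, and of 66 cytosolic ribosomal proteins 20 were lower and 1 higher. Of 370 zinc finger genes 83 were lower and 13 higher. Of 23 killer cell lectin-like receptors 8 were higher and 1 lower, and of 24 dual-specificity phosphatases 8 were higher and 1 lower. Of 1105 olfactory receptor genes, which stand at the low end of the array, 49 were called higher, with a median of 0.18.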
